A study of Mus musculus with 12 samples.

Results

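Cytochrome P450 genes of the mouse liver were described over 12 RNA-seq libraries. Members were the rows of the deposited table whose gene symbol begins with Cyp followed by a number and a letter, other than Cyp4a14 and Cyp39a1. This gave 25 of the 3799 genes in the table. GENCODE M21 annotates 99 protein-coding genes of this name pattern, of which 27 were in the table, which the authors had limited to selected genes, so the P450 genes outside it were not analysed here. The deposit labels these as differentially expressed genes, so they may have been selected on these same libraries. Adjusted p-values and shares of all genes given below hold within this selection and are no neutral background. All mice were C57BL/6J males, 8 weeks old at the start, and livers were taken on day 20. The 4 groups held 3 libraries each. Saline (libraries A1, A2 and A3, labelled vehicle) received saline injections and no doxorubicin. The methods do not state a gavage for this group. DOX (B1, B3 and B4) received doxorubicin, an anthracycline that damages DNA and was used to bring on premature ageing, at 10 mg/kg into the peritoneum on day 0 and day 7. Per the methods, DOX mice were also given vehicle by gavage every other day from day 2. DOX + K35 (C1, C2 and C4) and DOX + K27 (D1, D2 and D3) received the same doxorubicin and, by gavage every other day from day 2, 50 mg/kg of K35 or of its analogue K27, compounds chosen for dispersing aggregates of the glycolytic enzyme PKM2. No group received K35 or K27 without doxorubicin. The table's header names no unit, and its levels were taken as FPKM, a read density per transcript length scaled to the size of the library. Where 3 levels follow a group's name, they are in the library order given here.

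Cytochrome P450 enzymes are haem proteins that insert an oxygen atom into lipophilic molecules, with electrons passed on by the reductase Por in the endoplasmic reticulum. Members of the Cyp1, Cyp2 and Cyp3 families in the liver mainly oxidise drugs and other foreign compounds, while the Cyp4 family hydroxylates the ends of fatty acids and other members build bile acids or act on vitamin D, cholesterol and retinoic acid. Their genes are under the control of nuclear receptors and liver-enriched factors, and many of them are expressed in the hepatocytes around the central vein.

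Some properties of the libraries touch every result. The 13 mitochondrially encoded genes took 48.2 to 61.9% of the summed FPKM of the table across Saline, 62.2 to 83.3% across DOX, 37.9 to 48.7% across DOX + K35 and 50.01 to 68.0% across DOX + K27 libraries. B4 held the highest share, and the sum of all other genes was lowest there. Of the markers listed for hepatocytes, 5 of 12 were in the table (Apoa1, Apob, Cps1, Tat and Trf), and their summed level was 9646 to 11931 FPKM across Saline, 6446 to 13568 across DOX, 10011 to 15039 across DOX + K35 and 12765 to 13779 across DOX + K27 libraries. The 4 erythroid markers, all globin genes, summed to 329.8 to 506, 821 to 1135, 62.2 to 596 and 452 to 1072 FPKM in the same order, with C4 lowest. The hepatocyte sum mixed opposite changes. The mean of Apoa1 was higher in DOX than in Saline, at 7424 against 5268 FPKM. Means of the 4 others were lower, at 1790 against 4373 for Trf and 377 against 691 for Tat. For Cps1 they were 195 against 366 and for Apob 105 against 199. By limma at an unadjusted p under 0.05, these 4 were lower, beside 40.1% of all genes tested. The part of these differences in the P450 values was not tested. Counts of reads were not given, so the depth is unknown, and p-values measure the spread between the libraries of a group.

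The summed level of the 25 genes was 6769.8, 7262 and 4891 FPKM across Saline, 4766, 2870.1 and 1133 across DOX, 7622, 7808 and 7203 across DOX + K35 and 6575, 7332 and 4539 across DOX + K27 libraries. All DOX libraries lay below the lowest Saline library, B1 by a small margin, and all DOX + K35 libraries lay above every DOX library, whereas D3 of DOX + K27 lay within the range of DOX. As a share of the FPKM outside the mitochondrial genome, the sum was 3.68 to 5.17% across Saline, 1.08 to 3.91% across DOX, 5.25 to 5.56% across DOX + K35 and 3.77 to 5.46% across DOX + K27 libraries. On that scale A3 lay below B1, so the Saline and DOX ranges overlapped. In these bulk samples, fewer cells of a type and less RNA per cell cannot be told apart.

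Most of the sum came from 2 genes. Cyp2e1, which oxidises ethanol and acetaminophen, made up 33.7 to 58.4% of it. Cyp3a11, a main drug-metabolising P450 of the mouse liver, made up 14.3 to 28.3%, with the highest share in C4. The Cyp2c genes ranged together from 264 to 1974 FPKM, the Cyp4 genes from 122 to 557 and the sterol and bile acid genes from 41.6 to 250.2.

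**Figure D1:**
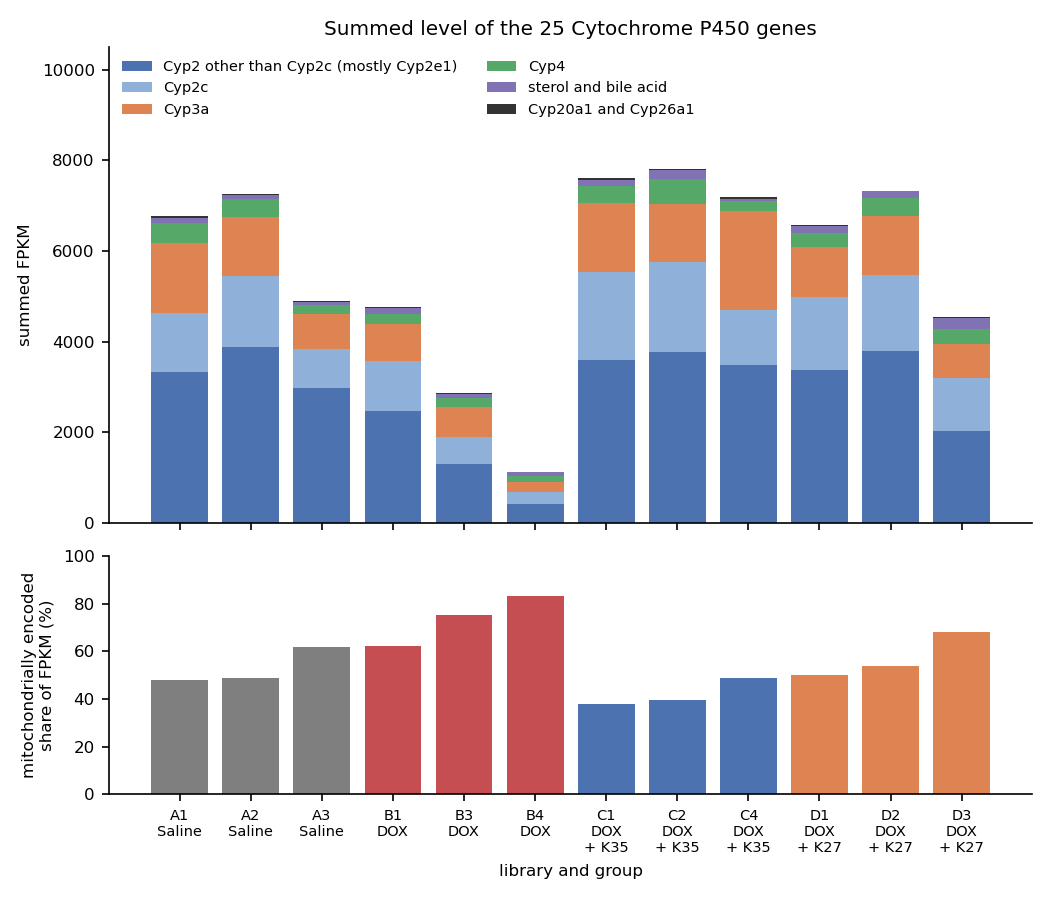
Summed FPKM of the 25 Cytochrome P450 genes in each of the 12 libraries, stacked by subfamily (top), and the share of each library's summed FPKM from mitochondrially encoded genes in percent (bottom, bars coloured by group). B4 has both the smallest P450 sum, 1133 FPKM, and the largest mitochondrial share, 83.3%.

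Against Saline, the DOX means of most P450 genes were lower, but no member passed the threshold, an adjusted p under 0.05. The log2 fold change, taken as the difference of log2(FPKM + 1) and thus smaller than the true change for low genes, was below 0 for 22 of 25 members, with a median of −1.07 against −0.34 over all 3317 genes tested. By limma with the Benjamini-Hochberg method, 0 of 25 members passed in DOX vs Saline, where 0.181% of all genes did, and the members' adjusted p-values ran from 0.0612 to 0.663. At an unadjusted p under 0.05, 15 members were lower and 2 higher, against 40.1% and 7.27% of all genes. The 3 DOX libraries lay wholly below the 3 Saline libraries for 10 members and wholly above for 3, against 23% and 12.3% of all genes. B4 was the lowest of the 12 libraries for 18 members and for 1769 of the 3317 genes tested. Single libraries decided the count. Without B1, the DOX library nearest to Saline, 18 members (72%) passed, against 44.4% of all genes, and without A3, the Saline library nearest to DOX, 15 (60%) passed, against 35.9%. Among the 9 libraries whose replicate number the labels give, which leaves out B3, B4 and C4, a fit with a replicate block called 4 members lower in DOX, namely Cyp2c29, Cyp2c39, Cyp2j5 and Cyp4v3, against 9.95% of all genes. B1 is the only DOX library in that fit, so its spread comes from the other groups and B1 is assumed to vary like them. In every comparison with DOX, values from the replicate block below rest on B1 alone, and the effect of the block cannot be told apart from that of leaving out B3, B4 and C4.

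14 members passed in DOX + K35 vs DOX, 13 of them higher and 1 lower with K35. This was 56% of the members, against 56.8% of all genes tested, so in this fit the share of P450 genes called was close to that of the table as a whole. By direction, 13 of 25 stood beside a background of 46% higher and 1 of 25 beside 10.7% lower. The median log2 fold change of the members was 1.29, against 0.46 for all genes, a difference of 0.83. This difference was 0.60 after quantile normalization, which brought the all-gene median to 0.12, and 0.66 when the 20 highest genes, Cyp2e1 among them, were left out and the libraries rescaled. The members called were 10 higher and 3 lower in the former and 8 higher and 3 lower in the latter, where Cyp2j9 and Cyp4f15 joined Cyp46a1 as lower. That was 13 of 25 and 11 of 24 members, against 69.9% and 70.7% of all genes, so under both settings the share of members called was below that of the table. The smallest and largest counts came from leaving out 1 library. 10 members passed without B4 or without C2, against 49.5% and 45.7% of all genes, and 20 passed without C4, against 63.5%.

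K27 was compared in the same way. In DOX + K27 vs DOX, 0 of 25 members passed, where 0.0603% of all genes did. The fold changes were above 0 for 23 members, with a median of 1.02 against 0.36 for all genes. At an unadjusted p under 0.05, 16 members were higher and none lower, against 28% of all genes higher, and for 12 members the DOX + K27 libraries lay wholly above the DOX libraries, against 15.9%. For 1 member, Cyp2j9, the DOX + K27 libraries lay wholly below the DOX libraries, against 89 of the 3317 genes tested. The smallest adjusted p among the members was 0.155. Without B1, 18 members passed, against 33.1% of all genes. The K35 and K27 comparisons share the same DOX libraries, so their members' values are given side by side in the plot of fold changes and no overlap is drawn from them.

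**Figure D2:**
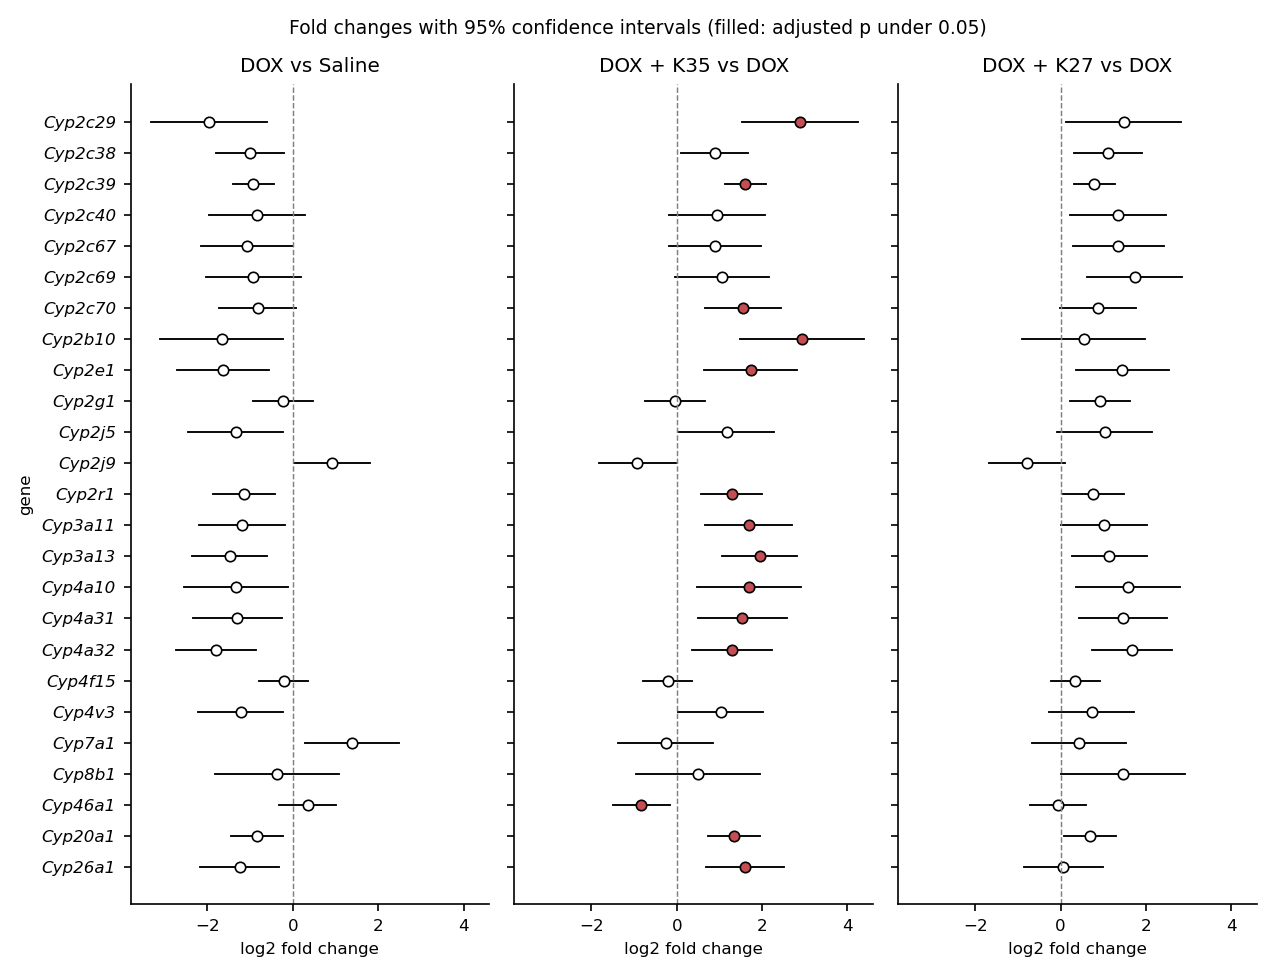
Log2 fold changes of the 25 Cytochrome P450 genes (points) with 95% confidence intervals (lines) from limma on log2(FPKM + 1), in DOX vs Saline, DOX + K35 vs DOX and DOX + K27 vs DOX, 3 libraries per group. Filled points mark the 14 genes with an adjusted p under 0.05, all of them in DOX + K35 vs DOX.

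**Figure D3:**
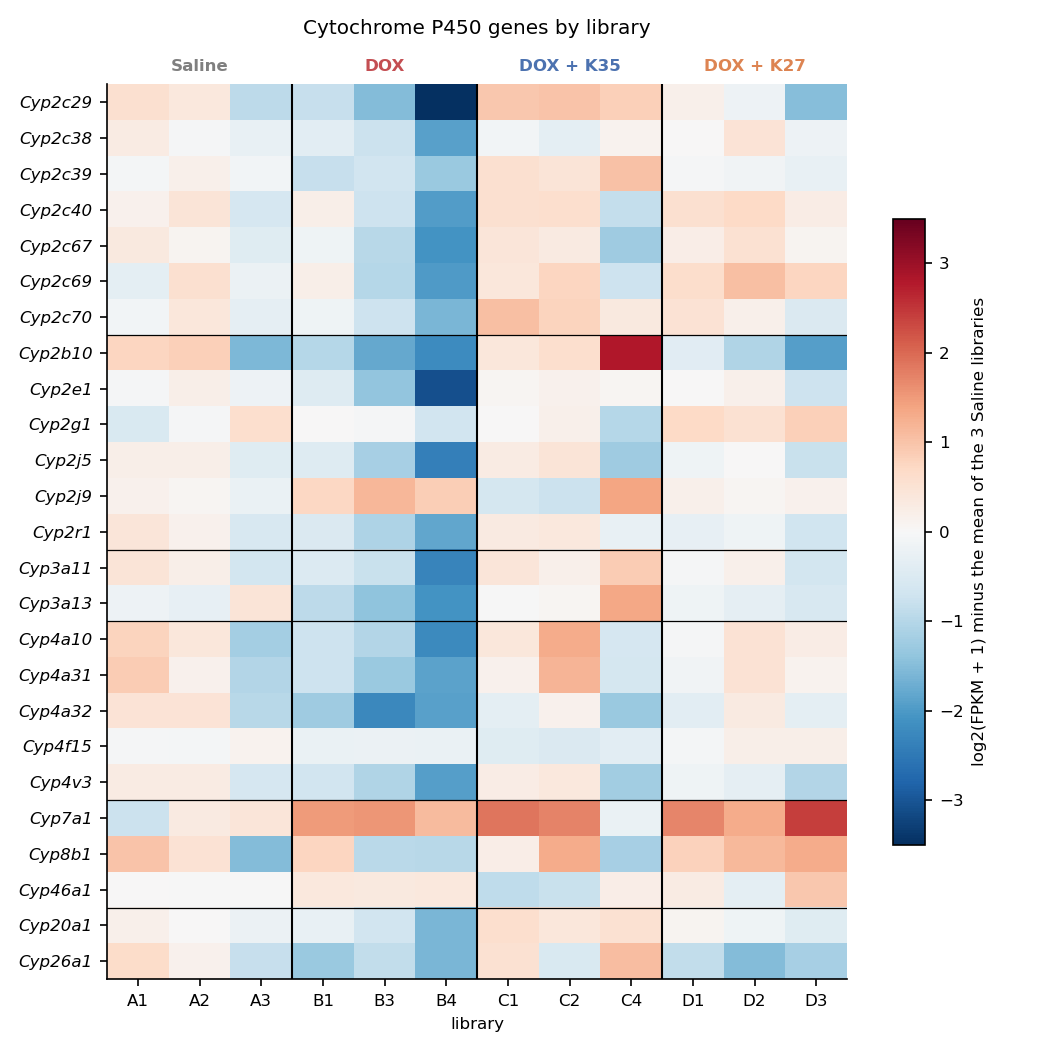
Level of each Cytochrome P450 gene in each library as log2(FPKM + 1) minus the mean of the 3 Saline libraries, blue below and red above it, with subfamilies separated by horizontal lines and groups by vertical lines. The column of B4 is blue for most genes, the row of Cyp7a1 is red in every DOX and DOX + K27 library, and C4 differs from C1 and C2 in many rows.

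No Cyp1 gene was among the members, although GENCODE M21 annotates 3, so the family that answers to the aryl hydrocarbon receptor was not analysed here. The Cyp2 family gave 13 of its 49 annotated genes, and 7 of these belong to Cyp2c, a cluster on chromosome 19 (GRCm38). Cyp2c29 (chromosome 19, 39269405 to 39330713), which forms epoxides from arachidonic acid, was at 419.6, 369 and 149.7 FPKM in the Saline libraries, at 164, 99.1 and 23.0 in the DOX libraries, at 547, 572 and 506 in the DOX + K35 libraries and at 325, 253 and 102 in the DOX + K27 libraries. The DOX + K35 libraries were above all others, and the DOX libraries were below A1 and A2 but B1 was above A3. Cyp2c29 rose in DOX + K35 vs DOX by a log2 fold change of 2.88 (SE 0.63, limma adjusted p = 0.00551), and the change in DOX vs Saline was −1.96 (SE 0.63, limma adjusted p = 0.0612). The value of Cyp2c29 is uncertain in that the pseudogene Cyp2c53-ps shares its strand and part of its span.

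Cyp2c39, which hydroxylates retinoic acid, was at 3.92, 4.77 and 3.80 FPKM in the Saline libraries, at 1.95, 2.23 and 1.08 in the DOX libraries, at 6.52, 6.04 and 9.48 in the DOX + K35 libraries and at 4.05, 3.71 and 3.29 in the DOX + K27 libraries. Its 4 groups were ordered without overlap between DOX at the bottom and DOX + K35 at the top, while the Saline and DOX + K27 ranges overlapped. Cyp2c39 rose in DOX + K35 vs DOX by 1.60 on the log2 scale (SE 0.22, limma adjusted p = 0.00496). Cyp2c70, the enzyme with which mice make muricholic acids, was at 235, 328 and 203 FPKM in the Saline libraries, at 227, 150.1 and 81.9 in the DOX libraries, at 519.5, 432 and 317 in the DOX + K35 libraries and at 356, 282 and 175 in the DOX + K27 libraries. It rose by 1.55 with K35 (SE 0.42, limma adjusted p = 0.00794), and its DOX + K35 libraries lay above all DOX libraries. Cyp2c38 did not pass in any comparison, with group means of 31.4, 16.6, 28.9 and 34.3 FPKM in Saline, DOX, DOX + K35 and DOX + K27 and a limma adjusted p of 0.0525 in DOX + K35 vs DOX.

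The other Cyp2c members, Cyp2c40, Cyp2c67 and Cyp2c69, are neighbours with near-identical transcripts. Of the 100-base stretches of their transcripts, 41.7%, 23.7% and 36.3% also occurred in transcripts of one another or of Cyp2c68, so reads could have been split between them and their single values are uncertain. Cyp2c40 and Cyp2c69 are among the P450 genes known to be higher in female than in male mouse liver, and they were at 57.1 to 368 and 72.7 to 605 FPKM in these male mice. They were the only 2 of the 10 female-predominant genes listed that were in the table. None of the 4 male-predominant genes listed (Cyp2d9, Cyp4a12a, Cyp4a12b and Cyp7b1) was in it. As the table holds selected genes, absence from it gives no level. Cyp2c69 was at 228, 427 and 253 FPKM in the Saline libraries, at 337, 145 and 72.7 in the DOX libraries, at 384, 488 and 176 in the DOX + K35 libraries and at 449, 605 and 490.5 in the DOX + K27 libraries. B1 lay among the Saline libraries, C4 lay far below C1 and C2, and all DOX + K27 libraries were above all DOX and Saline libraries. None of the 3 genes passed in any comparison. For Cyp2c69 in DOX + K27 vs DOX, the log2 fold change was 1.73 (SE 0.52, limma adjusted p = 0.155), the largest of the members there, and without B1 it was 2.30 (limma adjusted p = 0.0238). Without C4 all 3 passed as higher in DOX + K35 vs DOX, at 1.41 for Cyp2c40, 1.43 for Cyp2c67 and 1.49 for Cyp2c69 (limma adjusted p = 0.0317, 0.0187 and 0.025).

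RefSeq promoters on GRCm38.p6, 250 bases before to 50 after the annotated start, were at hand for 21 of the 25 members. Both strands were searched for 10 motifs. TATAAA is the core of the TATA box, and TTATGTAA is the D-box bound by clock-controlled factors. AGGTCA is the half-site of nuclear receptors, which the direct repeat 1 (the half-site 2 times with 1 base between) also contains. The palindrome of HNF1 was searched with 1 free base in its middle, and CAAAGTCCA was taken for HNF4. TTGCGCAA stood for the CEBP factors. CACGTG is the E-box and GGGCGG the GC box. The motif of factor NF-Y was CCAAT. The HNF4 letters were in 6 members, 28.6% of those with a promoter, and in 0.475% of all 32841 promoters. The TATA letters were in 13 members, 61.9%, and in 13.6% of all promoters. They were counted at any position, from −234 (Cyp3a11) to 40 (Cyp2c40) relative to the annotated start. In Cyp2c40, Cyp2c69 and Cyp26a1 they lay after that start. The half-site was in 23.8% of members and 16.3% of all promoters, the NF-Y motif in 38.1% and 37.4%, the GC box in 23.8% and 35.7%, and the E-box in 4.76% and 7.15%. D-box, direct repeat 1, HNF1 and CEBP letters were in 0 members and in 0.938%, 0.0396%, 0.00913% and 0.183% of all promoters.

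The stretches around the HNF4 letters are shown because theirs was the share that stood furthest above that of all promoters, as a ratio. All lie on the minus strand, at chr19:39812765-39812889 for Cyp2c40, chr19:39649068-39649197 for Cyp2c67, chr19:40187251-40187380 for Cyp2c70, chr5:145879864-145879993 for Cyp3a11 and chr9:121916273-121916402 for Cyp8b1, and are written 5′ to 3′ along the gene's strand with the HNF4 and TATA letters in capitals.
Cyp2c40: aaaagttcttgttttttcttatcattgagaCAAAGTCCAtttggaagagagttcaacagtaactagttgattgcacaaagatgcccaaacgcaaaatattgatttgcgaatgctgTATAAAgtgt
Cyp2c67: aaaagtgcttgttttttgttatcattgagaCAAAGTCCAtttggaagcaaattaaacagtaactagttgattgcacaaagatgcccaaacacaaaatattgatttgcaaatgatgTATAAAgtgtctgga
Cyp2c70: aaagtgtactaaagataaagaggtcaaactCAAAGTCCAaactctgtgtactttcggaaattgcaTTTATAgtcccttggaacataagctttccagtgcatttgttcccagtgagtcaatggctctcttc
Cyp3a11: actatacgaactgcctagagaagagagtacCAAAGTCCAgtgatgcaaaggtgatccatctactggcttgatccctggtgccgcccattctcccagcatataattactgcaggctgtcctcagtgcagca
Cyp8b1: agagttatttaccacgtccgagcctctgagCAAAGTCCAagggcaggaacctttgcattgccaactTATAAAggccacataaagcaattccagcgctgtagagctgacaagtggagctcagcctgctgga

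Over the first 125 bases, the stretch of Cyp2c69 (chr19:39886745-39886874) was identical to that of Cyp2c40, and that of Cyp2c67 differed from both at 9 positions, so these 3 promoters are near-copies and not separate observations. Outside this trio the bases flanking the HNF4 letters differed. A match is a description of the letters and not a binding site. Of the 6 genes with the HNF4 letters, 2 passed in DOX + K35 vs DOX, Cyp2c70 and Cyp3a11. Of the 15 other members with a promoter, 10 passed, beside 56.8% of all genes. The trio among the 6, whose transcripts share sequence, did not pass over the 12 libraries but passed as higher without C4. A difference between the 2 sets was not tested.

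6 Cyp2 members lie outside Cyp2c. Cyp2e1 (chromosome 7, 140763739 to 140774987) was at 3139, 3678 and 2855 FPKM in the Saline libraries, at 2353, 1227 and 381 in the DOX libraries, at 3382, 3546 and 3372 in the DOX + K35 libraries and at 3217, 3614 and 1935 in the DOX + K27 libraries. The DOX libraries were all below the Saline libraries and differed widely among themselves, while the DOX + K35 libraries lay within the range of Saline. Cyp2e1 rose by 1.73 in DOX + K35 vs DOX (SE 0.51, limma adjusted p = 0.0107), a call that was not made in the 9-library fit with the replicate block, where B1, the DOX library nearest to Saline, stood alone for DOX (log2 fold change 0.48, limma adjusted p = 0.106). In DOX vs Saline the change was −1.63 (SE 0.51, limma adjusted p = 0.0612).

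Cyp2b10 (chromosome 7, 25897620 to 25926624), a P450 of drug metabolism and the classic target of the receptor CAR, was at 9.21, 9.77 and 1.02 FPKM in the Saline libraries, at 2.02, 0.737 and 0.321 in the DOX libraries, at 7.03, 8.05 and 41.6 in the DOX + K35 libraries and at 3.56, 1.90 and 0.604 in the DOX + K27 libraries. A3 stood apart from the other Saline libraries at the level of DOX, and C4 stood apart from C1 and C2 with the highest level of all libraries. Cyp2b10 had the largest log2 fold change of the members in DOX + K35 vs DOX, 2.93 (SE 0.67, limma adjusted p = 0.00567). Without C4 it was 2.16 (limma adjusted p = 0.01). In DOX + K27 vs DOX the change was 0.54 (SE 0.67, limma adjusted p = 0.628).

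Cyp2r1, which hydroxylates vitamin D, was at 9.83, 8.01 and 4.51 FPKM in the Saline libraries, at 4.69, 2.81 and 1.31 in the DOX libraries, at 9.09, 9.57 and 5.80 in the DOX + K35 libraries and at 5.67, 6.30 and 4.05 in the DOX + K27 libraries. All DOX + K35 libraries lay above all DOX libraries, and A3 lay within the DOX range. It rose by 1.29 with K35 (SE 0.34, limma adjusted p = 0.00736). Cyp2j9, a P450 that acts on arachidonic acid and is best known from the brain, was at 5.49, 5.12 and 3.90 FPKM in the Saline libraries, at 8.65, 12.1 and 9.43 in the DOX libraries, at 2.76, 2.45 and 14.0 in the DOX + K35 libraries and at 5.50, 5.11 and 5.38 in the DOX + K27 libraries. It was one of 3 members with higher DOX than Saline levels in every library, C1 and C2 were the lowest libraries and C4 the highest. In DOX vs Saline its log2 fold change was 0.92 (limma adjusted p = 0.0971) and −0.92 in DOX + K35 vs DOX (limma adjusted p = 0.073), where without C4 it passed as lower at −1.61 (limma adjusted p = 0.00441) with C1 and C2 against the 3 DOX libraries. The fit with the replicate block, which sets C1 and C2 against B1 alone, gave −1.37 (limma adjusted p = 0.0106).

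Cyp2j5, an arachidonic acid epoxygenase of liver and kidney, had group means of 155 ± 36.6 FPKM for Saline, 68.3 ± 40.9 for DOX, 151 ± 76.9 for DOX + K35 and 125 ± 34.5 for DOX + K27 (SD, n = 3). It passed in no comparison, and without C4 it passed as higher in DOX + K35 vs DOX (1.70, limma adjusted p = 0.0113). Cyp2g1, best known from the olfactory mucosa, was low throughout, at 0.932 to 5.94 FPKM. Its DOX + K27 levels of 5.33, 4.58 and 5.94 lay above those of DOX at 2.91, 2.77 and 1.42, with a log2 fold change of 0.93 and a limma adjusted p of 0.155, and without B1 of 1.05 (limma adjusted p = 0.0438).

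Both members of the Cyp3 family, of 9 annotated, passed in DOX + K35 vs DOX. Cyp3a11 (chromosome 5, 145854426 to 145879964) was at 1488, 1262 and 701 FPKM in the Saline libraries, at 790.1, 639 and 221 in the DOX libraries, at 1479, 1232 and 2041 in the DOX + K35 libraries and at 1064, 1249 and 699 in the DOX + K27 libraries. Its DOX + K35 libraries were above all DOX libraries and C4 was the highest of the 12, while A3 and D3 lay between B1 and B3. Cyp3a11 rose by 1.68 on the log2 scale with K35 (SE 0.47, limma adjusted p = 0.00914), and in DOX vs Saline the change was −1.19 (SE 0.47, limma adjusted p = 0.0725).

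Cyp3a13, a second Cyp3a enzyme found in liver and intestine, was at 51.3, 47.2 and 79.3 FPKM in the Saline libraries, at 30.02, 21.1 and 12.7 in the DOX libraries, at 57.0, 60.5 and 149 in the DOX + K35 libraries and at 51.8, 46.3 and 39.2 in the DOX + K27 libraries. The DOX libraries lay below every library of the other groups, and C4 lay above all others. Cyp3a13 rose by 1.94 with K35 (SE 0.41, limma adjusted p = 0.00516), by 1.499 without C4 (limma adjusted p = 0.00732), and missed the threshold in the fit with the replicate block (limma adjusted p = 0.0545). In DOX vs Saline the change was −1.47 (SE 0.41, limma adjusted p = 0.0612). Its value is uncertain in that Gm15502 shares its strand and part of its span.

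The Cyp4 family gave 5 of its 20 annotated genes. Cyp4a10, Cyp4a31 and Cyp4a32 lie in 1 cluster on chromosome 4 and hydroxylate the ends of fatty acid chains, and genes of this group are known targets of PPARα. Cyp4a10 (chromosome 4, 115518264 to 115533649) was at 276, 211 and 69.7 FPKM in the Saline libraries, at 96.9, 77.7 and 33.2 in the DOX libraries, at 212, 391 and 105 in the DOX + K35 libraries and at 155, 228 and 192 in the DOX + K27 libraries. Cyp4a31 was at 13.1, 7.39 and 2.70 FPKM in the Saline libraries, at 3.59, 2.08 and 1.07 in the DOX libraries, at 7.47, 16.2 and 3.94 in the DOX + K35 libraries and at 6.02, 9.76 and 7.22 in the DOX + K27 libraries. Cyp4a32 was at 20.1, 20.1 and 6.76 FPKM in the Saline libraries, at 5.36, 2.17 and 3.04 in the DOX libraries, at 10.9, 15.7 and 5.11 in the DOX + K35 libraries and at 10.8, 17.8 and 10.9 in the DOX + K27 libraries. In all 3 genes A3 was far below A1 and A2 and close to the DOX libraries, C2 was above C1, and C4 was the lowest DOX + K35 library, within or next to the DOX range. They share 12.2%, 7.33% and 20.1% of their 100-base transcript stretches with each other, so their single values are uncertain.

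All 3 Cyp4a genes rose in DOX + K35 vs DOX, Cyp4a10 by 1.69 (SE 0.57, limma adjusted p = 0.0202), Cyp4a31 by 1.54 (SE 0.48, limma adjusted p = 0.0146) and Cyp4a32 by 1.30 (SE 0.44, limma adjusted p = 0.0203). Each of these calls ended under some settings. Without B4 the limma adjusted p-values were 0.0909, 0.0733 and 0.0593, and without C2 they were 0.109, 0.0839 and 0.103. Cyp4a10 and Cyp4a32 also lost the call without C1 (limma adjusted p = 0.0509 and 0.0599), and Cyp4a32 without B3 (limma adjusted p = 0.0896). With all libraries kept, Cyp4a10 missed the threshold after quantile normalization and without the 20 highest genes (limma adjusted p = 0.0845 and 0.0955), Cyp4a31 in the latter (limma adjusted p = 0.0617) and Cyp4a32 in both and with median-ratio scaling (limma adjusted p = 0.0857, 0.14 and 0.0515). With the replicate block, the limma adjusted p-values were 0.125, 0.163 and 0.0953. In DOX + K27 vs DOX the changes were 1.57, 1.47 and 1.67, each with a limma adjusted p of 0.155 and with all DOX + K27 libraries above all DOX libraries, and without B1 the limma adjusted p-values were 0.0358, 0.0288 and 0.0238.

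Cyp4f15, of a subfamily that hydroxylates eicosanoids, had another order of levels than the Cyp4a genes. It was at 79.99, 78.7 and 89.6 FPKM in the Saline libraries, at 70.5, 71.8 and 70.5 in the DOX libraries, at 61.4, 57.8 and 64.1 in the DOX + K35 libraries and at 79.2, 95.7 and 96.0 in the DOX + K27 libraries. The DOX libraries were almost equal, every DOX + K35 library lay below them and every DOX + K27 library above them. No comparison of Cyp4f15 passed over the 12 libraries at the reported scaling. After quantile normalization and without the 20 highest genes it passed as lower in DOX + K35 vs DOX, at −0.88 and −0.93. Cyp4v3, the mouse counterpart of a human fatty acid hydroxylase of the eye and liver, was at 71.0, 71.5 and 38.4 FPKM in the Saline libraries, at 36.4, 27.4 and 14.4 in the DOX libraries, at 70.2, 75.7 and 24.4 in the DOX + K35 libraries and at 52.3, 46.8 and 28.1 in the DOX + K27 libraries. All DOX libraries lay below all Saline libraries and C4 lay within the DOX range. It passed in no comparison over the 12 libraries, and without C4 it passed as higher in DOX + K35 vs DOX (1.54, limma adjusted p = 0.00997). Its level is uncertain, since Gm45753 shares its strand and part of its span.

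Of the sterol and bile acid P450 genes, Cyp7a1, Cyp8b1 and Cyp46a1 were members. Cyp7a1 (chromosome 4, 6265612 to 6275633), the rate-limiting enzyme of bile acid synthesis from cholesterol, was at 16.1, 34.9 and 37.3 FPKM in the Saline libraries, at 79.1, 82.5 and 61.2 in the DOX libraries, at 104, 93.5 and 23.4 in the DOX + K35 libraries and at 92.4, 70.00 and 154 in the DOX + K27 libraries. Every DOX and DOX + K27 library was above every Saline library, and so were C1 and C2, whereas C4 lay within the Saline range. In DOX vs Saline the log2 fold change was 1.38 (SE 0.52, limma adjusted p = 0.0646) and 1.82 in DOX + K27 vs Saline (SE 0.52, limma adjusted p = 0.353). In DOX + K35 vs DOX it was −0.26 (SE 0.52, limma adjusted p = 0.668) and turned to 0.42 without C4 (limma adjusted p = 0.394).

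Cyp8b1 (chromosome 9, 121914356 to 121916305), the hydroxylase needed for cholic acid, was at 74.7, 52.2 and 12.2 FPKM in the Saline libraries, at 62.7, 18.7 and 18.4 in the DOX libraries, at 43.4, 91.6 and 15.8 in the DOX + K35 libraries and at 64.7, 82.2 and 91.9 in the DOX + K27 libraries. The ranges of Saline, DOX and DOX + K35 overlapped widely, and the DOX + K27 libraries lay above all DOX libraries. Cyp8b1 passed in no comparison, with a limma adjusted p of 0.17 in DOX + K27 vs DOX. Cyp46a1 (chromosome 12, 108334381 to 108362234), a cholesterol hydroxylase best known from neurons, was at 1.996, 1.97 and 1.94 FPKM in the Saline libraries, at 2.80, 2.77 and 2.81 in the DOX libraries, at 0.606, 0.739 and 2.51 in the DOX + K35 libraries and at 2.64, 1.32 and 4.70 in the DOX + K27 libraries. The Saline libraries were almost equal, as were the DOX libraries at a slightly higher level, and C1 and C2 were the lowest of all. Cyp46a1 was the only member past the threshold as lower in DOX + K35 vs DOX over the 12 libraries, with a log2 fold change of −0.83 (SE 0.31, limma adjusted p = 0.035). The call was lost without B1, B3, B4, C1 or C2 (limma adjusted p = 0.0641, 0.0748, 0.0771, 0.149 and 0.132) and with the replicate block (limma adjusted p = 0.0627), and the fold was −1.18 without C4 (limma adjusted p = 0.00601).

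The 2 remaining members also rose with K35. Cyp26a1 (chromosome 19, 37697798 to 37701536), which breaks down retinoic acid and is itself induced by it, was at 42.7, 30.3 and 15.2 FPKM in the Saline libraries, at 10.5, 14.4 and 8.34 in the DOX libraries, at 39.8, 18.3 and 58.0 in the DOX + K35 libraries and at 14.3, 8.79 and 11.6 in the DOX + K27 libraries. Both DOX and DOX + K27 lay below all Saline and all DOX + K35 libraries. Cyp26a1 rose by 1.61 in DOX + K35 vs DOX (SE 0.43, limma adjusted p = 0.00758), a call lost after quantile normalization (limma adjusted p = 0.0511) and when the 20 highest genes were left out (limma adjusted p = 0.0578). The change was −1.25 in DOX vs Saline (SE 0.43, limma adjusted p = 0.0612) and −1.18 in DOX + K27 vs Saline (SE 0.43, limma adjusted p = 0.632). Cyp20a1, a P450 without a settled substrate, was at 4.22, 3.70 and 3.05 FPKM in the Saline libraries, at 2.86, 1.90 and 0.534 in the DOX libraries, at 6.02, 5.07 and 5.65 in the DOX + K35 libraries and at 3.94, 3.19 and 2.44 in the DOX + K27 libraries. Its DOX + K35 libraries lay above all other libraries, and it rose by 1.35 with K35 (SE 0.28, limma adjusted p = 0.00516), although its value is uncertain in that 6030460B20Rik shares its strand and part of its span.

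**Figure D4:**
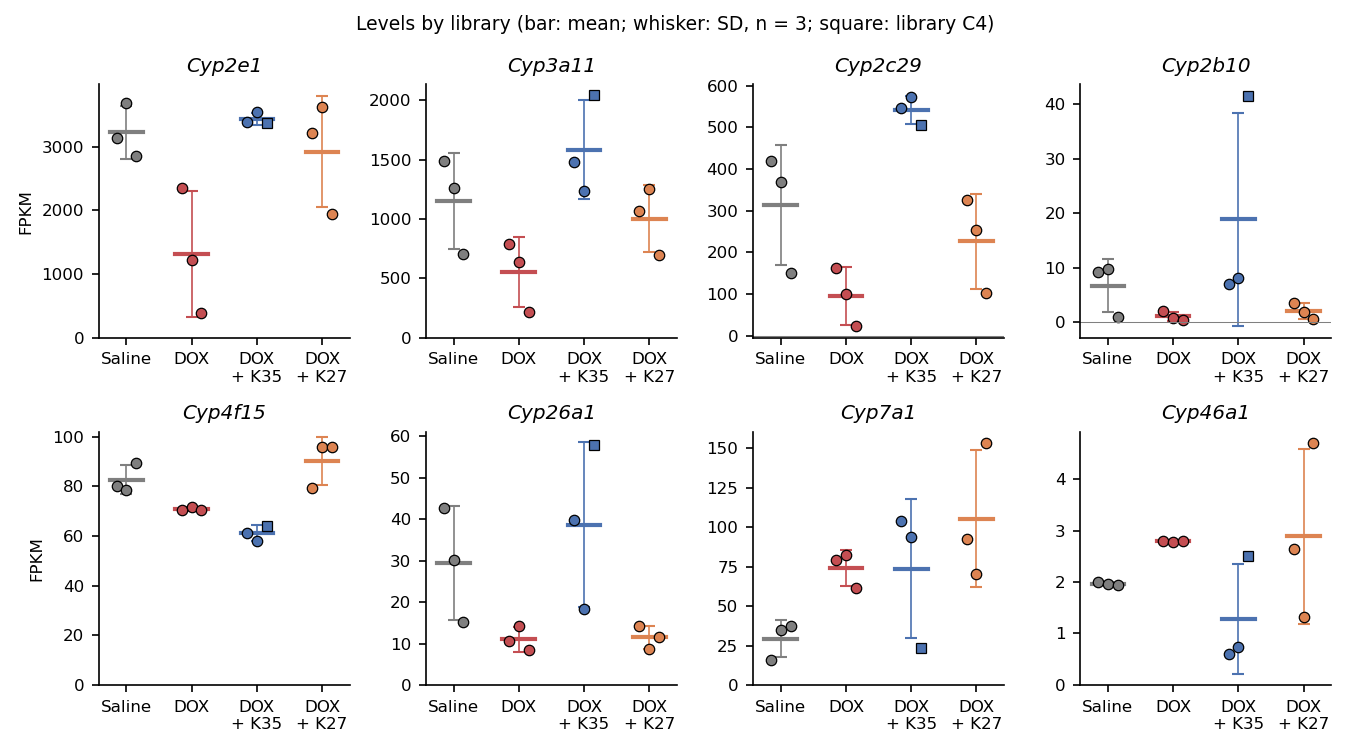
FPKM of 8 Cytochrome P450 genes in the 12 libraries, with each group's mean (bar) and SD (whisker, n = 3) and library C4 drawn as a square, each panel with its own linear axis. Cyp7a1 stands above Saline in all DOX and DOX + K27 libraries, Cyp26a1 stands low in DOX and DOX + K27, and C4 stands apart from C1 and C2 for Cyp2b10, Cyp7a1 and Cyp46a1.

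The 2 compounds, given at the same dose and on the same days, were compared directly for all 25 members. In DOX + K35 vs DOX + K27, 0 of 25 members passed, where 2.11% of all genes did. At an unadjusted p under 0.05, 5 members were higher and 2 lower with K35, against 14.7% and 13.6% of all genes, and the median over the members was 0.12 against 0.09 for all genes. The 5 higher were Cyp2c29, Cyp2c39, Cyp2b10, Cyp20a1 and Cyp26a1. The difference of Cyp2b10 was 2.40 on the log2 scale (95% confidence interval 0.95 to 3.84, limma adjusted p = 0.0702). For Cyp26a1 it was 1.54 (interval 0.62 to 2.45, limma adjusted p = 0.069), and in both genes all DOX + K35 libraries were above all DOX + K27 libraries. Cyp2c39 differed by 0.81 (interval 0.33 to 1.30), Cyp2c29 by 1.41 (interval 0.06 to 2.76) and Cyp20a1 by 0.66 (interval 0.06 to 1.27). The 2 lower were Cyp2g1, at −0.97 (interval −1.67 to −0.27), and Cyp46a1, at −0.77 (interval −1.43 to −0.10).

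The most abundant members gave wide intervals. For Cyp2e1 the difference between K35 and K27 was 0.28 (95% confidence interval −0.80 to 1.37) and for Cyp3a11 0.67 (interval −0.35 to 1.68), so differences in either direction were within the error. For Cyp4f15 it was −0.55 (interval −1.12 to 0.02, limma adjusted p = 0.185), with no overlap between the groups. The count past the threshold changed with single libraries. It was 2 of 25 without B4 (Cyp2c39 and Cyp26a1, with 8.5% of all genes called), 2 without A3 (Cyp2b10 and Cyp26a1, 3.8%), 1 without C2 (Cyp26a1, 0.724%) and 1 without C4 (5.55%, Cyp46a1, at −1.12, limma adjusted p = 0.0445). In the fit with the replicate block over 9 libraries, without B3, B4 and C4, 9 of 25 members passed, against 43.7% of all genes. Cyp2c29 (0.98), Cyp2c39 (0.58), Cyp20a1 (0.54), Cyp4v3 (0.54), Cyp2r1 (0.50) and Cyp2j5 (0.44) were higher with K35 in it, and Cyp46a1 (−0.96), Cyp2j9 (−0.87) and Cyp4f15 (−0.53) lower, as log2 fold changes.

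Set against Saline, few members of the compound groups stood apart. In DOX + K35 vs Saline, 0 of 25 members passed, where 0.181% of all genes did, and 2 had an unadjusted p under 0.05, against 16.6%. These were Cyp2c39, with a log2 fold change of 0.68 (95% confidence interval 0.19 to 1.16), and Cyp7a1, with 1.12 (interval 0.02 to 2.23) and C4 within the Saline range. The replicate block fit over 9 libraries called Cyp2j9 lower (−0.74) and Cyp7a1 higher (2.06) in DOX + K35, 2 of 25 against 7.08% of all genes. In DOX + K27 vs Saline, 0 of 25 members passed, where 0.121% of all genes did, and 2 had an unadjusted p under 0.05, against 5.94%, namely Cyp7a1 as higher and Cyp26a1 as lower. DOX had the lowest of the 4 group means for 21 of 25 members. The highest mean was that of DOX + K35 for 12 members, DOX + K27 for 9, Saline for 3 and DOX for 1, Cyp2j9. This order was not counted over all genes, most of which shifted in the same directions. Log2 fold changes were below 0 for 1994 of 3317 genes and 22 of 25 members in DOX vs Saline. They were above 0 for 1857 genes and 20 members in DOX + K35 vs DOX, and for 2374 genes and 23 members in DOX + K27 vs DOX.

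C4, the DOX + K35 library whose code is in the table but not among the sample titles, differed from C1 and C2 in many P450 genes. Relative to the mean of C1 and C2 on the log2(FPKM + 1) scale, C4 was at least 1 higher for 5 members and at least 1 lower for 11, against 5.91% and 5.73% of all genes tested. The median difference between C1 and C2 themselves was 0.17 over the members. The higher ones were Cyp2b10 (2.32), Cyp2j9 (2.06), Cyp3a13 (1.33), Cyp46a1 (1.07) and Cyp26a1 (1.07). The lower ones included Cyp7a1 (−2.03) and Cyp8b1 (−1.94) of bile acid synthesis, the trio Cyp2c40, Cyp2c67 and Cyp2c69, Cyp2g1, Cyp2j5, Cyp4v3 and the 3 Cyp4a genes. C1 and C2 themselves differed by 1.08 for Cyp26a1, 1.06 for Cyp8b1 and 1.02 for Cyp4a31. For Cyp26a1 this was as large as the departure of C4. C4 was the highest of the 12 libraries for 6 members, against 17% of all genes tested, and the lowest for 1, Cyp2g1, against 7.33%. Cyp2e1, Cyp2c29, Cyp20a1 and Cyp4f15 were close to C1 and C2 in it.

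**Figure D5:**
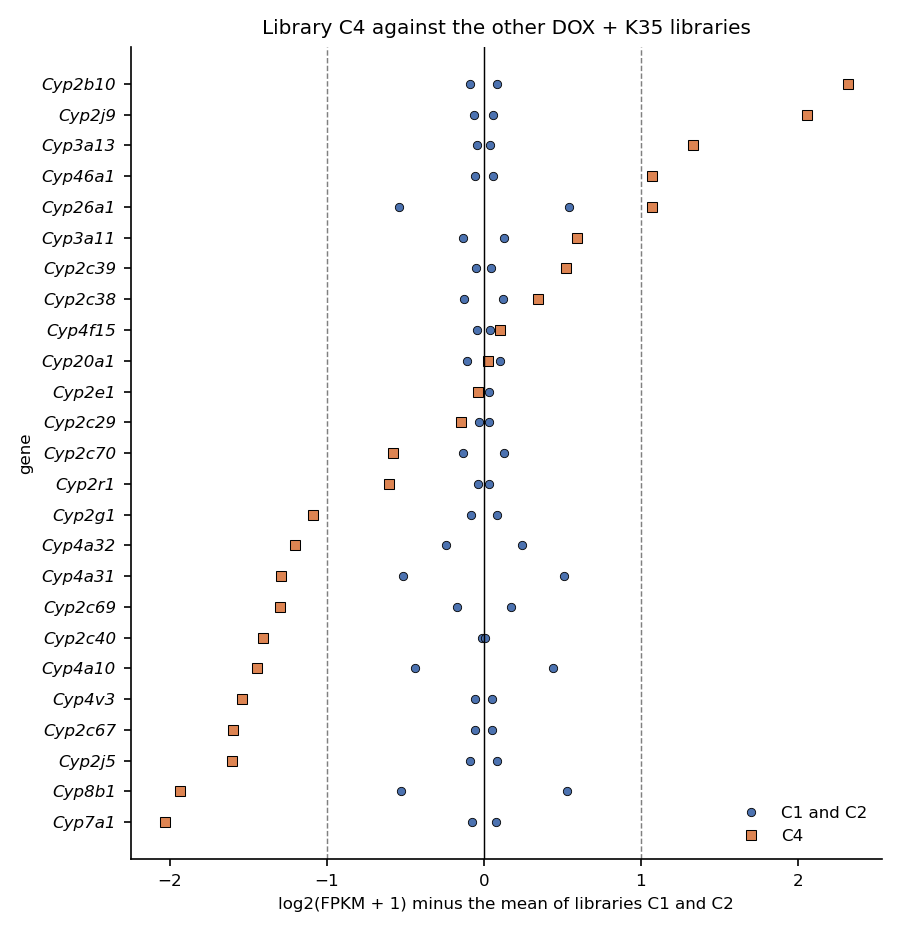
Level of each Cytochrome P450 gene in C4 (squares) and in C1 and C2 (circles) as log2(FPKM + 1) minus the mean of C1 and C2, with dashed lines at 1 log2 unit. C4 lies outside the dashed lines for 16 of 25 genes, 5 above and 11 below.

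With C4 left out, 20 members passed in DOX + K35 vs DOX, 18 higher and 2 lower, against 63.5% of all genes. All 14 members called over the 12 libraries were among them, and Cyp2c40, Cyp2c67, Cyp2c69, Cyp2j5, Cyp4v3 and Cyp2j9 were added. The fold changes of Cyp2g1 and Cyp7a1 turned sign without C4, at 0.32 and 0.42, and neither passed.

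Genes that serve the P450 enzymes were followed as lists. Of 20 redox partners and genes of haem supply, 8 were in the table, and all 8 passed in DOX + K35 vs DOX, 6 higher (Por, Cyb5b, Hmox1, Hmox2, Cpox and Fech) and 2 lower (Fdxr and Ppox), against 56.8% of all genes called. Fech, which inserts iron into haem, rose by 1.20 and Hmox1, which breaks haem down, by 1.09 (limma adjusted p = 0.0088 and 0.0114). Fdxr, the reductase of the mitochondrial P450 enzymes, fell by 0.91 (limma adjusted p = 0.014). Por, the reductase that supplies electrons to the microsomal P450 enzymes, was at 191, 183 and 185 FPKM in the Saline libraries, at 115, 86.6 and 63.3 in the DOX libraries, at 269, 252 and 368 in the DOX + K35 libraries and at 209, 174 and 182 in the DOX + K27 libraries. All DOX libraries lay below all others and C4 was the highest, and Por rose by 1.76 with K35 (SE 0.32, limma adjusted p = 0.00496). Of 23 receptors and factors that control P450 genes, 4 were in the table, and Rxra, Klb and Cux2 rose with K35 while Tef did not pass. Cux2 is a factor known to be higher in female liver. Its level was 7.05, 9.43 and 4.10 FPKM across Saline and 3.37, 1.75 and 4.87 across DOX libraries. It was 5.38, 6.49 and 16.0 across DOX + K35, with C4 highest, and 14.5, 8.49 and 23.0 across DOX + K27 libraries. The DOX + K27 mean of Cux2, 15.3, lay above its DOX + K35 mean, 9.29. Of 15 bile acid and sterol enzymes outside the members, all 5 in the table rose with K35 (Acox2, Amacr, Hsd17b4, Slc27a5 and Sqle). In the other 5 comparisons no gene of these lists passed.

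Markers of the cell types that liver can hold moved as well. In DOX + K35 vs DOX, 4 of 5 hepatocyte markers in the table, 2 of 3 periportal, 4 of 6 Kupffer cell and 2 of 5 stellate and endothelial markers passed as higher, and all 4 erythroid genes as lower, against 46% of all genes higher and 10.7% lower. The periportal markers Cps1, Ctsc and Sds summed to 633 to 705 FPKM across Saline, 296 to 610.4 across DOX, 754 to 969 across DOX + K35 and 536 to 603 across DOX + K27 libraries. The Kupffer cell markers summed to 73.4 to 202, 18.5 to 53.0, 53.1 to 84.3 and 53.9 to 97.0 FPKM in the same order, and the stellate and endothelial markers to 5.74 to 9.01, 6.38 to 15.0, 12.6 to 15.8 and 11.7 to 15.2. Their part in the P450 values was not tested. Ptprc, the one lymphocyte marker in the table, passed in no comparison, and 0 of 5 neutrophil markers were in the table.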

How the data were processed

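Mouse liver RNA was sequenced in 12 libraries. Per the submitters' processing notes, reads were handled with HISAT2, DESeq2 and edgeR on GRCm38, with no version given, and the strandedness of the counting was not given in the sources used here. The authors deposited 1 table of expression values for 3799 genes, whose header names no unit, and the values were taken as FPKM as the authors computed them for selected genes. No counts were given, so neither depth nor counting error is known. The labels number the DOX and DOX + K35 libraries 1 to 3, whereas the table's codes skip B2 and C3. The columns B3, B4 and C4 were therefore assigned to a group but to no replicate number, and 0 columns were left out. Levels were taken as log2(FPKM + 1), the 3317 genes whose mean reached 1 FPKM were kept, and 1 limma fit over the 4 groups gave 6 comparisons with Benjamini-Hochberg adjustment over all genes tested. A member was called at an adjusted p under 0.05. The fit was made in limma 3.58.1 under R 4.3.3 and was tested on simulated data, and positions, sequences and plots were handled in Python 3.11.15 with matplotlib 3.10.9 and numpy 2.4.6. Members with values in every library were those called in DOX vs Saline, DOX + K27 vs DOX or DOX + K35 vs DOX + K27, the 10 with the largest called change in DOX + K35 vs DOX, and a list of P450 genes well known in liver. Cyp2c69, Cyp2j9, Cyp4a32, Cyp4f15, Cyp20a1 and Cyp46a1 were added after their values were seen. The members and the lists were chosen with earlier results of these data known. Gene positions, overlaps and transcript stretches came from GENCODE M21 and promoters from RefSeq. Alternatives were a pseudocount of 0.1, all genes without a filter, scaling by median ratios or by quantiles, omission of the 20 highest genes or of the mitochondrially encoded ones, a fit of only the groups compared, the replicate number as a block, and omission of each library in turn. The block treated replicate numbers as pairs. Deviations from the group means correlated with r of 0.109 to 0.474 in the 10 same-numbered pairs, against −0.68 to 0.56 in 19 others. Every r below 0 involved A3 or D3, and differently numbered pairs among replicates 1 and 2 correlated at 0.17 to 0.56. These correlations set A3 and D3 apart but do not show that replicates 1 and 2 are paired. The labels do not say what a number marks, and nothing says whether libraries came from separate mice. One list of liver zone markers is not reported here.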

Additional observations from a re-analysis of the deposited data

Results flagged for a closer look

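In 3 P450 genes the 3 DOX + K35 libraries lay on one side of a reference mean and the 3 DOX + K27 libraries on the other. For Cyp4f15, DOX + K35 stood at 57.8 to 64.1 FPKM and DOX + K27 at 79.2 to 96.0, around the DOX mean of 70.9, and the log2 difference between the compounds was −0.55 (95% confidence interval −1.12 to 0.02, limma adjusted p = 0.185). Around the Saline mean of 6.67 FPKM, Cyp2b10 stood at 7.03 to 41.6 with K35, C4 being the highest, and at 0.604 to 3.56 with K27, a log2 difference of 2.40 (95% confidence interval 0.95 to 3.84, limma adjusted p = 0.0702). Cyp2c39 stood at 6.04 to 9.48 and 3.29 to 4.05 FPKM around a Saline mean of 4.16, a log2 difference of 0.81 (95% confidence interval 0.33 to 1.30, limma adjusted p = 0.069). None of the 25 members passed the direct test of K35 against K27 over the 12 libraries. In the 9-library fit with the replicate block, Cyp4f15 and Cyp2c39 passed it, at −0.53 and 0.58 (limma adjusted p = 0.0235 and 0.0202), as did 43.7% of all genes. Groups of 3 libraries were not tested for single libraries that stand apart.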

How the results depend on the processing

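The counts of members called in DOX + K35 vs DOX were 14 in the reported fit, beside 56.8% of all genes. They were 11 to 15 under the settings other than leaving out a library or the replicate block, beside 49.8% to 78.1% of all genes. The 0 calls in DOX vs Saline became 9 with median-ratio scaling, 6 after quantile normalization, 4 without the 20 highest genes and 4 with the replicate block, beside 31.9%, 19.6%, 32.4% and 9.95% of all genes, and 0 to 18 on leaving out 1 library (18 without B1, 15 without A3). In DOX + K27 vs DOX they ranged from 0 to 18 on leaving out 1 library (18 without B1). The calls in DOX + K35 vs DOX + K27 were 3 with median-ratio scaling, 1 after quantile normalization, 1 without the 20 highest genes, 9 with the replicate block and 0 to 2 on leaving out 1 library, beside 8.74%, 6.75%, 7.76% and 43.7% of all genes in the first 4. The replicate block called 2 in DOX + K35 vs Saline. The block, which leaves out B3, B4 and C4, called 0 in DOX + K27 vs DOX and in DOX + K27 vs Saline. Medians near 0 turned sign. In DOX + K35 vs DOX + K27 the members' median log2 fold change of 0.12 became −0.039 after quantile normalization and −0.13 without the 20 highest genes, and ran from −0.11 to 0.36 on leaving out 1 library (−0.11 without C2, −0.02 without D1). Against Saline, the median of DOX + K35 ran from −0.12 to 0.36 (−0.12 without A3). In DOX + K27 vs Saline it was −0.035 with median-ratio scaling and −0.19 to 0.10 on leaving out 1 library (−0.19 without A3, −0.02 without D1, −0.07 without D2). The change of Cyp7a1 in DOX + K35 vs DOX, −0.26, became 0.23 with the replicate block and ran from −0.64 to 0.42 (0.42 without C4). Of 957 values of 48 folds of named members, 858 kept their direction and side of the threshold, 28 were no longer past it, 69 were newly past it and 2, both of Cyp7a1, turned sign. The cause of these shifts was not tested. With no counts, low genes such as Cyp46a1 and Cyp2g1 carry a counting error that is unknown.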
